A study of Mus musculus with 6 samples.

Results

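The Id genes and the Smad genes stand at the receiving end of bone morphogenetic protein (BMP) and transforming growth factor beta (TGF-beta) signalling, and 10 of them were followed here from the tip to the stalk of the ureteric tree of the embryonic mouse kidney. They were Id1, Id2, Id3 and Id4 and the Smad genes Smad1, Smad3, Smad4, Smad5, Smad6 and Smad7, taken by symbol out of 21456 gene symbols with values. The values are RPKM, reads per kilobase of transcript and per unit of mapped reads in the library, as deposited by the authors and summed over the rows of each symbol. Cells came from kidneys of CFW mice at stage E16.5, and all carried a green reporter named for Hoxb7, a gene of the whole ureteric epithelium. The tip group was positive for a red reporter named for Wnt11, a gene of the growing ureteric tip, as well as for the green one (Wnt11RFP+;Hoxb7GFP+, 3 libraries). The stalk group carried the green reporter without the red one (Wnt11RFP-;Hoxb7GFP+, 3 libraries). The stalk group was thus defined by the absence of the tip reporter and takes in every other green cell of the tree. Whether separate animals or litters gave the libraries is not stated, so p-values measure only the spread between these libraries, which may be technical.

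BMP and TGF-beta ligands bind paired receptor kinases, which phosphorylate receptor-regulated Smad proteins in the cytoplasm. Smad1 and Smad5 serve the BMP receptors and Smad3 the TGF-beta and activin receptors, and each joins the common partner Smad4 to act on genes in the nucleus. Smad6 and Smad7 are inhibitory Smads, induced by the pathway that they restrain. Id1, Id2 and Id3 are classical BMP target genes. Id proteins hold a helix-loop-helix dimerisation domain without a DNA-binding basic region, so that they capture E proteins and keep them off DNA. In the ureteric tree, BMP signalling is known to restrain branching.

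The sorted cells had the markers of ureteric epithelium. All 12 genes of the ureteric list were tested, with Krt18, Krt8 and Epcam above 80 RPKM in every library, and Wnt11 was at 423 to 930 RPKM in the tip libraries against 1.92 to 24.5 RPKM in the stalk libraries. Tip and stalk differed widely, which sets the background for any single gene. Of 12532 genes averaging 1 RPKM or more, limma called 48.6% at a Benjamini-Hochberg adjusted p of 0.05, with 26.1% higher in tip and 22.5% higher in stalk. On the second principal component (9.21% of the variance), tip replicate 2 (-20.5) and stalk replicate 1 (-25.0) lay apart from the other 4 libraries (7.72 to 18.5). Calls and differences of the members that change without them are given both ways. How deeply each library was sequenced was unknown.

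Promoter sequence was examined for the letters that Smad proteins are known to bind, and the stretches shown are those around a match in the members whose levels differed, with Id3 as the most abundant member. Windows of 300 bases, 250 before to 50 after RefSeq (GRCm38.p6) start sites, were searched for 7 of the 10 members, 9 windows in all. Id1, Smad4 and Smad7 were not searched, so whether they hold any of the motifs is unknown. The motifs searched, on both strands, were the palindromic Smad-binding element GTCTAGAC, the shorter element CAGAC, which reads as GTCTG on the other strand and is not contained in GTCTAGAC, the GC-rich palindrome GGCGCC of BMP-responsive enhancers, and the E-box CACGTG. GTCTAGAC was in the Smad6 window, 4 bases before to 4 bases after the start, and in 0.213% of all 32841 windows. GGCGCC was in windows of Id2, Id4 and Smad5 and in 11.9% of all windows. CAGAC was in windows of Id3 and Smad5 and in 49.6% of all, and CACGTG was in none of the searched members' windows and in 7.15% of all. The stretches below run 5′ to 3′ on the gene's strand, with the match in capitals.
Smad6, minus strand, chr9:64022045-64022159: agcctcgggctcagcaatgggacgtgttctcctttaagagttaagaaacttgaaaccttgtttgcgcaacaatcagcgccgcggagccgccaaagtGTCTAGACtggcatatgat
Id2, minus strand, chr12:25096283-25096342: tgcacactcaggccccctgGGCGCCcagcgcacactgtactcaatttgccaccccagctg
Id4, plus strand, chr13:48260941-48261000: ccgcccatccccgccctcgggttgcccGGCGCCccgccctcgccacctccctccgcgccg
Id3, plus strand, chr4:136143643-136143672: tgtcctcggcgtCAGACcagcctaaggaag
Id3, plus strand, chr4:136143742-136143771: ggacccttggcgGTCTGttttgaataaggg
Smad5, plus strand, chr13:56703021-56703050: ccccggcgagcgGGCGCCgagcgcttgtcc
Smad5, plus strand, chr13:56703635-56703664: cgtgcccaagttCAGACtccatcccctccc
Id2 was higher in stalk and Id4 and Smad5 were higher in tip (values follow), so the shared GGCGCC letters stood in members of both directions. A match is a run of letters and not evidence of binding, and these windows do not reach distant enhancers.

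Of the 10 members, all of which were tested, 2 were higher in tip (Id4 and Smad5), 2 were higher in stalk (Id2 and Smad6) and 6 did not pass the test. That share lay below the 48.6% called among all genes tested. The median difference over the members was -0.22 on the log2(RPKM + 1) scale, tip minus stalk, beside 0.05 over all genes tested. Their median absolute difference was 0.38, beside 0.39 over all genes. The groups did not overlap for 5 members, where 57.8% of all genes tested did not overlap. In 2 of these every tip library was above every stalk library (31.3% of all genes), and in 3 every stalk library was above every tip library (26.5%). Both the Id genes and the Smad genes held members higher in tip and members higher in stalk.

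**Figure D1:**
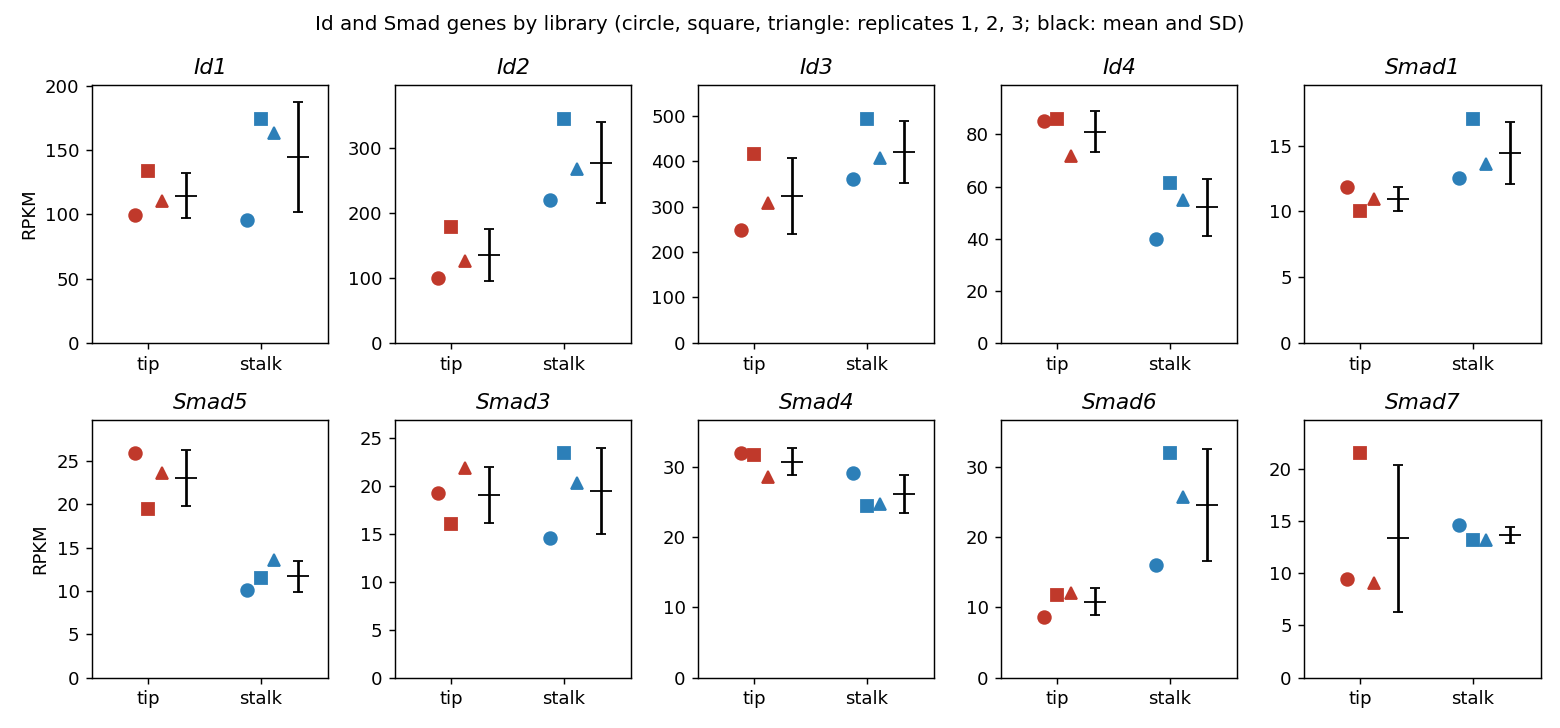
RPKM of the 10 Id and Smad genes (y axes, each from 0) in the 3 tip (red) and 3 stalk (blue) libraries, with replicates 1, 2 and 3 as circle, square and triangle and the mean and SD in black. Id2 and Smad6 lay higher in every stalk library, Id4 and Smad5 lay higher in every tip library, and Smad7 had 1 high tip library at 21.5 RPKM.

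Id2 was the Id gene with the largest difference (chromosome 12, 25093799 to 25097140, minus strand, mm10). It stood at 101, 179 and 127 RPKM in tip replicates 1 to 3 and at 221, 346 and 268 RPKM in stalk replicates 1 to 3. Every stalk library lay above every tip library. The means were 135 ± 39.9 RPKM in tip against 278 ± 63.2 RPKM in stalk (SD, n = 3), a 2.06-fold ratio, and the log2 difference was -1.05 (SE 0.23, limma adjusted p = 0.00541). Without tip replicate 2 and stalk replicate 1 it was -1.42. Among the genes tested, 16.1% had a larger absolute difference.

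Id4 went the other way (chromosome 13, 48261228 to 48266026, plus strand). It stood at 85.1, 86.1 and 71.9 RPKM in the tip libraries and at 39.8, 61.4 and 54.8 RPKM in the stalk libraries. The groups did not overlap, with means of 81.0 ± 7.94 RPKM in tip against 52.0 ± 11.05 RPKM in stalk (SD, n = 3), a 1.56-fold ratio. The log2 difference was 0.65 (SE 0.16, limma adjusted p = 0.0106). It was 0.43 without tip replicate 2 and stalk replicate 1 (adjusted p = 0.0219). Exons of 2 genes on the opposite strand cover 171 and 82 of the 3849 exon bases of Id4, and whether the authors' counting used strand is not given in the sources used here.

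Id3 was the most abundant member and ranked 109th by mean RPKM among the genes tested. It stood at 248, 415 and 308 RPKM in the tip libraries and at 360, 494 and 406 RPKM in the stalk libraries. Tip replicate 2 lay inside the stalk range, and the other tip libraries lay below it. The log2 difference of -0.40 (95% interval -0.84 to 0.05) was not called (limma adjusted p = 0.126). Without tip replicate 2 it was -0.59 and passed (adjusted p = 0.0203), and without tip replicate 1 it was -0.22 (adjusted p = 0.379).

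Id1 stood at 99.6, 134 and 111 RPKM in the tip libraries and at 95.8, 175 and 164 RPKM in the stalk libraries. Stalk replicate 1 was the lowest of all 6, and the other stalk libraries were the highest. The log2 difference of -0.30 (95% interval -0.81 to 0.21) was not called (limma adjusted p = 0.303). Without stalk replicate 1 it was -0.57 and passed (adjusted p = 0.00993). It was -0.14 without stalk replicate 2 (adjusted p = 0.654) and -0.18 without stalk replicate 3 (adjusted p = 0.594).

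The 4 Id genes were also set against each other within each library. The summed level of the 4 Id genes was 654 ± 144 RPKM in tip against 895 ± 180 RPKM in stalk (SD, n = 3). Shares of this sum are taken within a library and do not move with its scaling. Id2 made up 18.9, 22.0 and 20.5% of the sum in the tip libraries and 30.8, 32.2 and 30.0% in the stalk libraries. Id4 made up 16.0, 10.6 and 11.7% in tip and 5.56, 5.71 and 6.14% in stalk. Neither gene's shares overlapped between the groups. Id3 was the largest component everywhere, at 45.5 to 51.0% over the 6 libraries, and Id1 held 13.4 to 18.7%, with overlapping ranges for both. The ratio of Id2 to Id4 was 1.67 ± 0.455 in tip and 5.36 ± 0.410 in stalk. These shares and ratios are descriptions and were not tested.

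**Figure D2:**
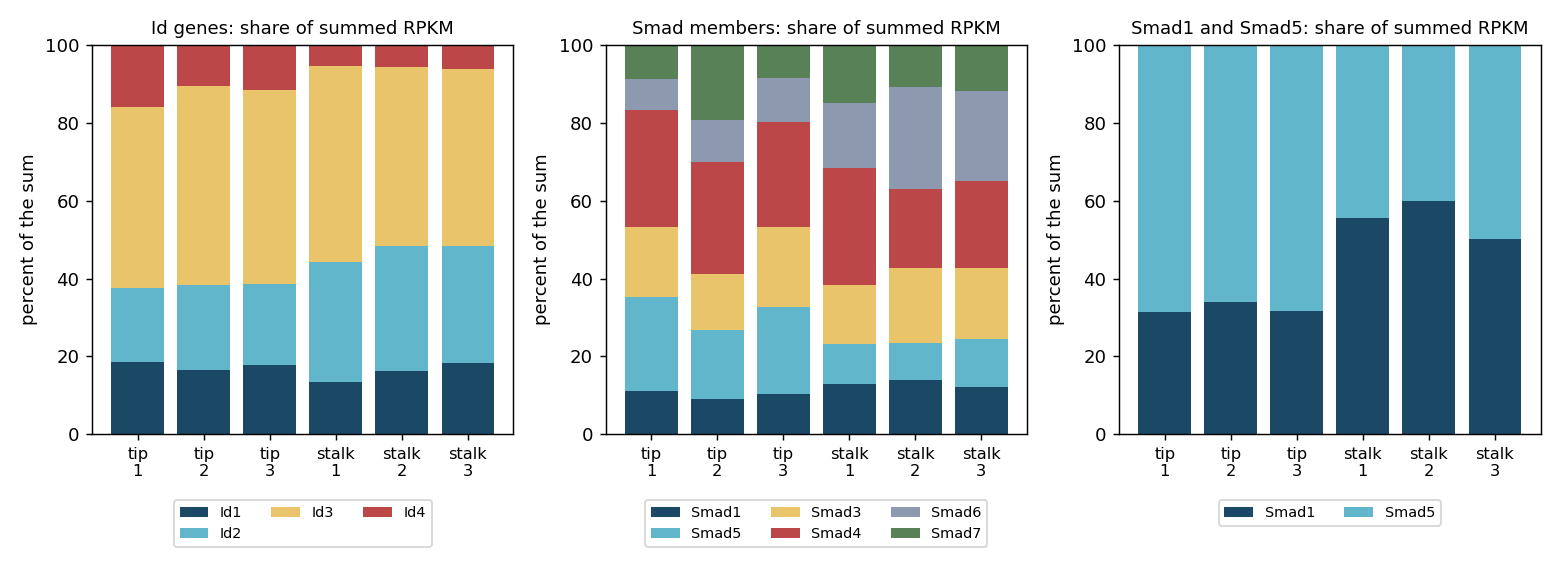
Share of each gene in the summed RPKM of the 4 Id genes (left), the 6 Smad members (middle) and the Smad1 and Smad5 pair (right), in percent (y axis) for each library (x axis). The Id2 share lies at 18.9 to 22.0% in tip and 30.0 to 32.2% in stalk, and the Smad5 share of the pair at 66.0 to 68.6% in tip and 40.2 to 49.96% in stalk.

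The E proteins, the dimerisation partners that Id proteins capture, were higher in tip for 3 of 3 genes, and for 2 of 3 with the highest row per symbol. Tcf3, which encodes E12 and E47, had 115 ± 10.02 RPKM (tip) and 66.3 ± 7.92 RPKM (stalk) (log2 difference 0.79, limma adjusted p = 0.000676). Tcf4 differed by 0.72 (adjusted p = 0.00210) and Tcf12 by 0.47 (adjusted p = 0.00484). Per library, the summed Id RPKM was 2.85, 4.67 and 3.69 times the summed E protein RPKM in tip and 6.89, 10.6 and 7.52 times in stalk. All stalk libraries lay above all tip libraries in this ratio, which is a ratio of transcripts and not of proteins and was not tested.

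Among the receptor-regulated Smads of the BMP branch, Smad5 was higher in tip and Smad1 was not called. Smad5 (chromosome 13, 56703010 to 56742377, plus strand) stood at 25.9, 19.5 and 23.7 RPKM in the tip libraries and at 10.1, 11.5 and 13.6 RPKM in the stalk libraries. The groups did not overlap. The means were 23.0 ± 3.25 RPKM in tip against 11.7 ± 1.79 RPKM in stalk (SD, n = 3), a 1.97-fold ratio with a log2 difference of 0.92 (SE 0.15, limma adjusted p = 0.00118). This was the smallest adjusted p among the 10 members.

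Smad1 stood at 11.9, 10.1 and 10.97 RPKM in the tip libraries and at 12.6, 17.1 and 13.6 RPKM in the stalk libraries. Every stalk library lay above every tip library. The log2 difference of -0.36 (95% interval -0.67 to -0.05) missed the threshold (limma adjusted p = 0.0584). It passed after median ratio scaling of the libraries (adjusted p = 0.0253) and without stalk replicate 1 (adjusted p = 0.0331).

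Seen as a pair, Smad5 made up 68.6, 66.0 and 68.4% of the Smad1 and Smad5 sum in the tip libraries and 44.5, 40.2 and 49.96% in the stalk libraries. The Smad5 to Smad1 ratio was 2.09 ± 0.133 in tip and 0.824 ± 0.165 in stalk (SD, n = 3). Smad5 was thus the more abundant of the pair in every tip library, while Smad1 was at or above it in every stalk library. Smad1 and Smad5 are close paralogs, and how reads that match both were assigned is not given in the sources used here. Smad9, the BMP-branch Smad outside the 10 members, had 0.177, 0.403 and 0.217 RPKM (tip) and 1.17, 2.45 and 1.90 RPKM (stalk). It was higher in stalk (log2 difference -1.14, limma adjusted p = 0.00267) at a level far below the others. Smad9 passed the mean of 1 RPKM only through the stalk libraries, so its call gives no support beyond these values. It was not tested without stalk replicate 2 or without stalk replicate 3.

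In the TGF-beta and activin branch, Smad3 stood at 19.3, 16.1 and 21.9 RPKM in the tip libraries and at 14.6, 23.4 and 20.4 RPKM in the stalk libraries. The ranges overlapped fully, and the log2 difference of -0.01 (95% interval -0.43 to 0.40) was not called (limma adjusted p = 0.957). Smad2, its partner in the same branch and not among the 10 members, averaged 26.5 ± 2.51 RPKM (tip) and 17.97 ± 1.78 RPKM (stalk). It was higher in tip (log2 difference 0.54, limma adjusted p = 0.00544).

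The common partner Smad4 had the highest mean RPKM of the Smad members over the 6 libraries, although Smad6 lay above it in stalk replicates 2 and 3. Smad4 stood at 32.0, 31.8 and 28.6 RPKM in the tip libraries and at 29.2, 24.5 and 24.7 RPKM in the stalk libraries. Its lowest tip library lay under its highest stalk library. The log2 difference of 0.23 (95% interval -0.01 to 0.48) was not called (limma adjusted p = 0.108), and without stalk replicate 1 it was 0.31 and passed (adjusted p = 0.0402).

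The inhibitory Smad6 was higher in stalk by about as much as Id2 (chromosome 9, 63953076 to 64022059, minus strand). It stood at 8.57, 11.7 and 12.1 RPKM in the tip libraries and at 16.0, 31.9 and 25.7 RPKM in the stalk libraries. Each stalk library lay above each tip library, with stalk replicate 1 the nearest. The means were 10.8 ± 1.92 RPKM in tip against 24.5 ± 7.997 RPKM in stalk (SD, n = 3), a 2.28-fold ratio. The log2 difference was -1.08 (SE 0.24, limma adjusted p = 0.00614), and -1.41 without tip replicate 2 and stalk replicate 1. Of the members searched, this is the one whose start site holds the palindrome GTCTAGAC printed above.

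Smad6 is an inhibitor directed mainly at the BMP branch. Its level relative to the Smad1 and Smad5 sum was 0.227, 0.396 and 0.348 in the tip libraries and 0.708, 1.12 and 0.943 in the stalk libraries. The ratio did not overlap between groups. The Smad1 and Smad5 sum itself was 34.0 ± 4.15 RPKM in tip against 26.1 ± 3.10 RPKM in stalk. The ratio was not tested.

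Smad7, the inhibitor of both branches, stood at 9.46, 21.5 and 9.05 RPKM in the tip libraries and at 14.6, 13.2 and 13.2 RPKM in the stalk libraries. Tip replicate 2 was above every stalk library, and the other tip libraries were below every stalk library. The log2 difference of -0.14 (95% interval -0.79 to 0.51) was not called (limma adjusted p = 0.711). Without tip replicate 2 it was -0.52 and passed (adjusted p = 0.0118), and without tip replicate 1 or 3 it was 0.04 and 0.07.

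**Figure D3:**
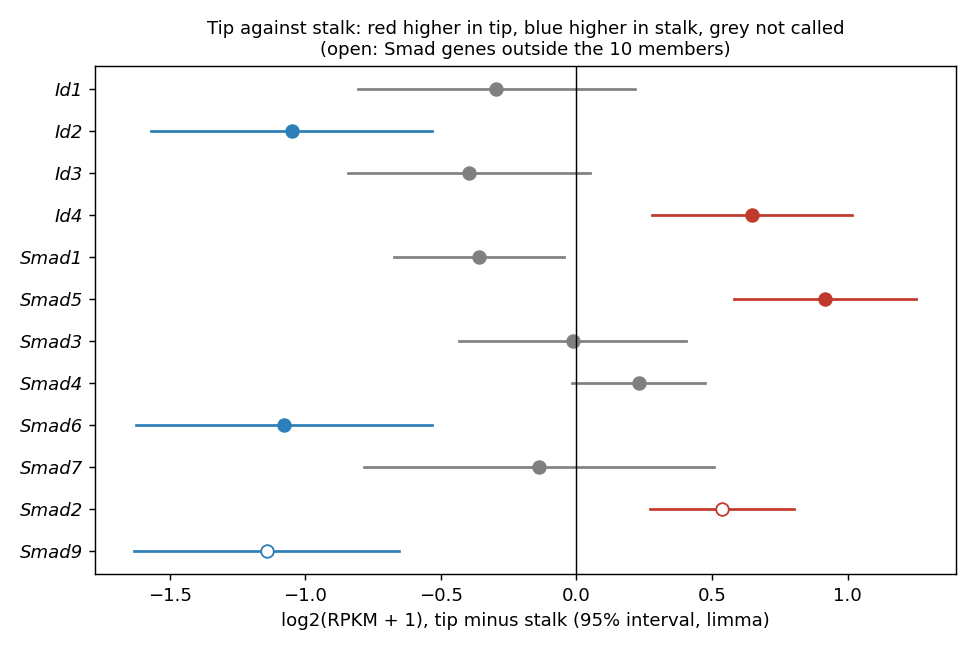
Log2(RPKM + 1) difference, tip minus stalk (x axis), with its 95% interval from limma for the 10 members (filled) and for Smad2 and Smad9 (open). Red genes were higher in tip, blue genes higher in stalk and grey genes were not called, with Id2 at -1.05, Smad6 at -1.08, Id4 at 0.65 and Smad5 at 0.92.

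With both libraries that lay apart left out (tip replicate 2 and stalk replicate 1), an alternative chosen after seeing the data, 5 members were higher in stalk and 2 higher in tip. The additional calls were Id1 (log2 difference -0.68, adjusted p = 0.00149), Id3 (-0.70, adjusted p = 0.00750) and Smad7 (-0.47, adjusted p = 0.0160). Without tip replicate 2 alone, 4 members were higher in stalk, and without stalk replicate 1 alone 4 were higher in stalk and 3 higher in tip. Id2, Id4, Smad5 and Smad6 were called in the same direction in each of the 14 alternatives.

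Within each group, Id1, Id2 and Id3 ordered the libraries alike. All 3 genes were lowest in replicate 1, intermediate in replicate 3 and highest in replicate 2, in tip and again in stalk. Id4, Smad1, Smad3 and Smad6 had this order in stalk but not in tip. The stalk libraries had the same order on the second principal component (-25.0, 18.5 and 8.36 in replicates 1 to 3). How many of all genes had this order was not counted, so it is not shown to be particular to these members. Markers of other cells and of tissue dissociation were set beside these levels. The summed RPKM of 12 endothelial markers was 26.7, 28.4 and 30.6 in the tip libraries and 123, 74.6 and 99.9 in the stalk libraries, and 11 of 11 tested endothelial genes were higher in stalk. Plvap had 2.68 to 3.74 RPKM (tip) and 13.9 to 24.3 RPKM (stalk), Egfl7 had 16.48 to 19.7 and 20.1 to 29.7 RPKM, and 0 of the 12 markers were under 0.05 RPKM in every library. In bulk samples, more cells of a type and more RNA per cell cannot be told apart. Within stalk the endothelial sum was highest in replicate 1 and lowest in replicate 2. Within stalk, Id1, Id2, Id3, Id4, Smad1, Smad3 and Smad6 were lowest in replicate 1 and highest in replicate 2. The part of endothelial cells in the differences of the members was not tested.

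The summed RPKM of 18 immediate early and heat shock genes, known to be induced when tissue is dissociated, was 3928, 3804 and 5139 in the tip libraries and 5150, 7959 and 7416 in the stalk libraries. Of these, 10 were higher in stalk and 1 higher in tip. Jun, the most abundant of them, had 678 to 818 RPKM (tip) and 800 to 1122 RPKM (stalk), and Nr4a1 had 575 to 759 and 684 to 834 RPKM. In stalk this sum had the order of Id1, Id2, Id3, Id4, Smad1, Smad3 and Smad6. In tip it was lowest in replicate 2, where Id1, Id2 and Id3 were highest. Its part in the differences of the members was not tested. The 12 stromal markers summed to 9.77 to 30.8 RPKM in tip and 14.2 to 42.2 RPKM in stalk, with 0 of 5 tested genes called by limma. Tagln and Acta2 were the highest of them, and Tagln reached 20.1 RPKM in tip replicate 2 and 34.2 RPKM in stalk replicate 1. Nephron progenitor markers summed to 4.77 to 7.10 RPKM in tip and 2.01 to 3.79 RPKM in stalk, and 2 of 2 tested genes, Cited1 and Crym, were higher in tip. Early nephron markers summed to 163 to 212 RPKM in tip against 105 to 146 RPKM in stalk, with 3 of 6 tested genes higher in tip and 1 in stalk. Ccnd1 and Pax8 were the highest of them. Immune markers summed to 13.1 to 15.7 RPKM in tip against 14.3 to 21.5 RPKM in stalk, with 1 of 4 tested genes higher in tip (Cd68) and 2 in stalk. Ptprc followed Cd68 in mean level. Erythroid markers summed to 55.7 to 115 RPKM in tip against 58.8 to 136 RPKM in stalk, with 0 of 4 tested genes higher in tip and 1 in stalk, and Tfrc and Hba-a1 were the highest of them.

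**Figure D4:**
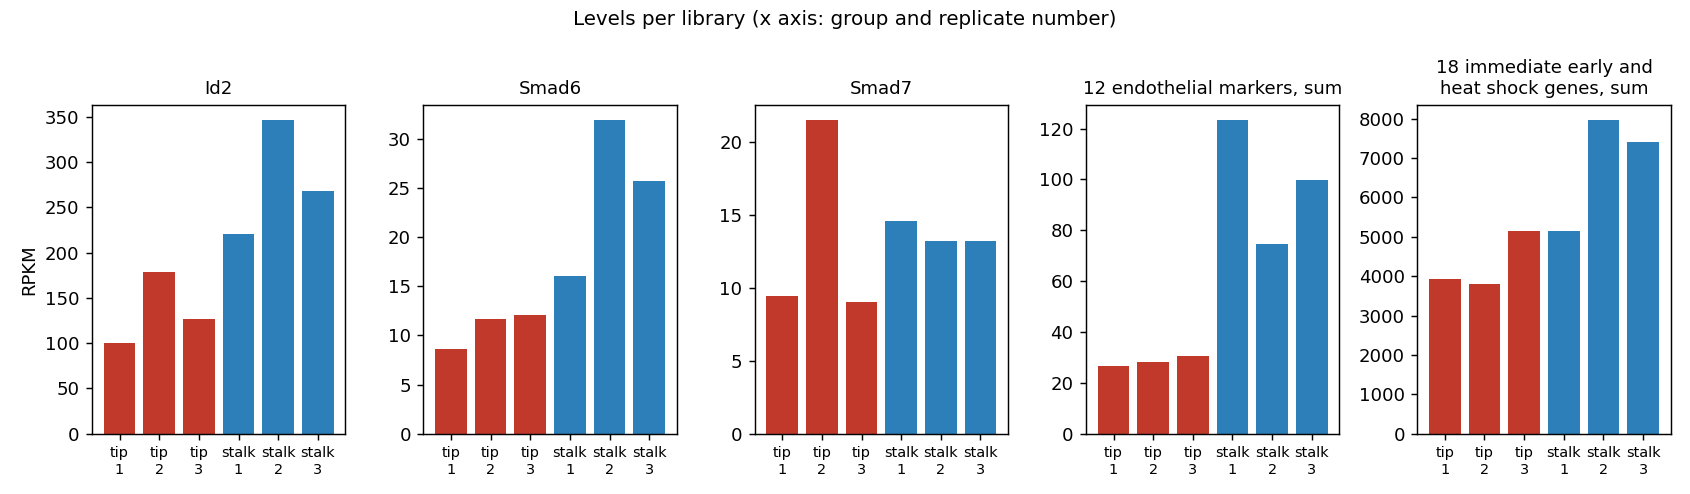
RPKM per library (x axis, group and replicate) for Id2, Smad6 and Smad7, and summed RPKM of 12 endothelial markers and of 18 immediate early and heat shock genes, with tip in red and stalk in blue. Id2, Smad6 and the endothelial sum are higher in stalk. Within stalk, Id2 and Smad6 are lowest in replicate 1 and the endothelial sum is highest there (123). Smad7 is highest in tip replicate 2 (21.5).

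Several members had more than 1 row in the table, without a transcript identifier. Id2, Id4 and Smad6 had a single row with values. Smad6 alone among the members also had rows of question marks, 2 of them, which were left out. For Id1, Id3, Smad1, Smad3, Smad4, Smad5 and Smad7 the leading row held at least 89.1% of the gene's RPKM in every library, with that lowest share in Smad5. The second rows of Id1 and Id3 varied together. The second row of Id1 held 5.36, 1.53 and 4.42% of its RPKM in the tip libraries and 1.66, 1.93 and 4.86% in the stalk libraries. That of Id3 held 5.07, 1.58 and 6.31% in tip and 1.58, 1.28 and 3.79% in stalk. Both shares were low in tip replicate 2 and in stalk replicates 1 and 2, and higher in the other libraries. The difference of Id3 was -0.43 with the leading row alone.

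Genes with the most similar profile were sought for Id2 and Smad6, by the root mean square difference of centred log2(RPKM + 1) values over the 6 libraries, among 9156 genes averaging 5 RPKM or more. Closest to Id2 were Mcoln3 (0.13), Myzap (0.15) and Gstm2 (0.15). Among the closest to Smad6 were Tmem200b (0.09) and Iqcc (0.15). Mcoln3, which encodes a cation channel of endosomes and lysosomes, had 14.9, 23.2 and 19.0 RPKM (tip) and 30.4, 41.3 and 36.8 RPKM (stalk), in the same library order as Id2.

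The other genes of the pathway went both ways. Of 94 genes on the lists of ligands, receptors, antagonists, cofactors, targets and E proteins, 67 were tested, with 20 toward tip and 18 toward stalk. Their median log2 difference was 0.04, beside 0.05 over all genes tested. These lists were drawn up from general knowledge, with earlier results on some of the genes known.

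Of 10 tested ligand genes, 5 were called toward tip and 5 toward stalk. Bmp7 had 94.3 ± 11.7 RPKM (tip) and 28.3 ± 4.89 RPKM (stalk), and Bmp3, which is known to oppose other BMPs, had 1.77 ± 0.731 and 16.8 ± 0.603 RPKM. Bmp1, a secreted protease despite its name, differed by 1.98 and Tgfb2 by -1.28. Without tip replicate 2 or 3, or without stalk replicate 2 or 3, 3 ligand genes were higher in tip, and without both tip replicate 2 and stalk replicate 1, 4 were called in each direction.

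Of 14 tested receptor and co-receptor genes, 3 were called toward tip and 4 toward stalk, and 4 and 6 without tip replicate 2 and stalk replicate 1. The BMP type I receptor gene Bmpr1b had 20.7 ± 1.04 RPKM (tip) and 11.7 ± 0.904 RPKM (stalk) (log2 difference 0.77), and the co-receptor gene Rgma differed by 1.11. The TGF-beta type I receptor gene Tgfbr1 had 22.1 ± 2.98 RPKM (tip) and 40.8 ± 3.64 RPKM (stalk) (-0.86). Acvrl1, known as a receptor of endothelial cells, differed by -1.78, with 0.168 to 0.675 RPKM (tip) and 3.17 to 4.77 RPKM (stalk). The co-receptor gene Eng was called toward tip, with 9.59 ± 1.55 RPKM (tip) and 7.07 ± 0.498 RPKM (stalk) (0.38, limma adjusted p = 0.0486). The endothelial sum was higher in stalk, as Acvrl1 was, and within stalk replicate 1 had the highest endothelial sum and the lowest Acvrl1. The part of endothelial cells in the Acvrl1 difference was not tested.

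Of 7 tested antagonist genes, 2 were higher in tip (Chrdl1, with 3.16 ± 1.01 against 0.450 ± 0.167 RPKM, and Sostdc1, 0.71) and 3 higher in stalk (Nbl1, -0.98, Twsg1, -0.93, and Fstl1, -0.66). Twsg1, which encodes a BMP-binding protein, had 45.9 ± 0.959 RPKM (tip) and 88.3 ± 3.83 RPKM (stalk). Without tip replicate 2 or 3 or stalk replicate 1, 1 antagonist gene was higher in tip. Of 17 tested genes for Smad anchors, corepressors and turnover, 3 were called toward tip and 1 toward stalk. The ubiquitin ligase gene Nedd4l, whose product targets Smad2 and Smad3, had 8.02 ± 1.22 RPKM (tip) and 30.8 ± 0.291 RPKM (stalk) (-1.82). The ligase gene Smurf1, whose product targets Smad1 and Smad5, was higher in tip (0.56), with Zfyve9 (0.39) and Trim33 (0.33). Without tip replicate 1 or 3 or stalk replicate 2, 1 gene of this group was higher in tip, and without tip replicate 2, 2 were higher in stalk.

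Of 17 tested Smad target genes other than the members, 4 were called toward tip and 5 toward stalk. Jun and Junb, among those toward stalk, are also on the list of immediate early and heat shock genes. Fibronectin (Fn1) had 36.5 ± 5.84 RPKM (tip) and 6.15 ± 1.56 RPKM (stalk) (2.40), and Runx1 (1.83) and Tgfbi (1.70) were also higher in tip. The BMP target gene Msx2 was listed at 0, 0.0786 and 0 RPKM in the tip libraries and stood at 1.66, 3.12 and 1.71 RPKM in the stalk libraries (-1.60, limma adjusted p = 0.000474). Msx2 passed the mean of 1 RPKM only through the stalk libraries, so its call gives no support beyond these values. Leaving out 1 library reduced the genes higher in stalk to between 1 (without stalk replicate 2) and 4. They were 2 without tip replicate 1 or stalk replicate 3, and 3 without tip replicate 2 or stalk replicate 1.

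**Figure D5:**
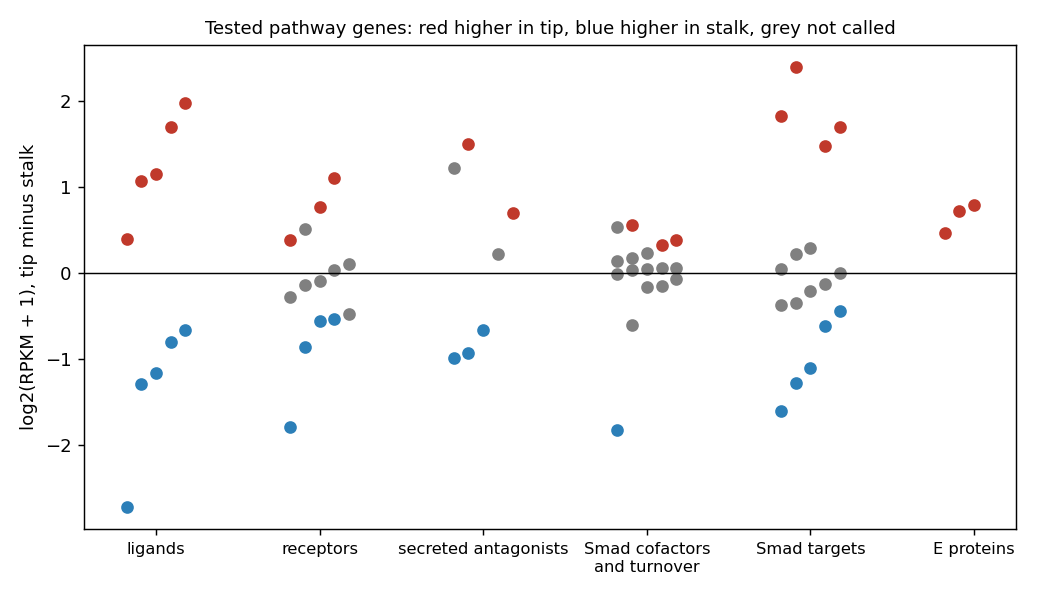
Log2(RPKM + 1) difference, tip minus stalk (y axis), of each tested gene of 6 pathway lists (x axis), with genes higher in tip in red, higher in stalk in blue and not called in grey. The 3 E protein genes lie between 0.47 and 0.79, and the other lists hold genes of both directions.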

How the data were processed

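Messenger RNA of 3 tip and 3 stalk libraries was analysed. The authors deposited 1 table of RPKM values. Build mm10 and the tools bcl2fastq 2.17, TopHat2 and Partek are named, per the submitters' processing notes. The annotation, quantification settings and use of strand are not given in the sources used here. Of 93615 rows, 24545 held question marks and were left out, and the others were summed per symbol. RPKM summed to 345123 to 366035 per library; the unit keeps no read totals, so depth and its precision were unknown. Genes averaging 1 RPKM or more were tested with limma 3.58.1 (R 4.3.3) on log2(RPKM + 1), moderated variances following a trend on the mean, no replicate block, two-sided, with Benjamini-Hochberg adjustment over 12532 genes at 0.05. This scale understates changes of low genes. A gene averaging under 1 RPKM in 1 group could pass the filter through the other group alone. Among those named, Tgfb2, Acvrl1, Chrdl1, Tgfbi, Msx2, Smad9, Cited1 and Crym did so, and their calls depend on the group where they were high. The model was tested on simulated data. Coordinates are from GENCODE M21 (mm10). The alternatives were a pseudocount of 0.1, a minimum mean of 5 RPKM, no filter, a replicate block, median ratio scaling, the highest row per symbol, no variance trend and leaving out libraries.

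The members and lists were chosen with earlier results of these data known. Named genes were all members, up to 4 called genes with the largest change per pathway list, and the 2 most abundant per marker list. Smad2, Smad9, Epcam, Wnt11, Fstl1, Eng and the genes of the closing section were named after their values were seen. Some genes that met these rules are not reported here.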

Additional observations from a re-analysis of the deposited data

How the results depend on the processing

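The counts of all genes higher in tip (2511 to 3274) and in stalk (2110 to 3143) stayed within 1.5 times their values of 3274 and 2815 in all 14 alternatives, and 2 to 3 members were higher in tip. The members higher in stalk numbered 2 to 4 with 1 library left out, and 5 without both tip replicate 2 and stalk replicate 1. The differences that changed sign were those of Smad3 (-0.20 to 0.13 with 1 library left out, with 0.10 without tip replicate 2, 0.13 without stalk replicate 2 and 0.03 without stalk replicate 3) and Smad7 (-0.52 to 0.065, with 0.04 without tip replicate 1 and 0.065 without tip replicate 3). Neither was called with all libraries. With the replicate number as a block, 2 members were higher in tip and 3 in stalk, Id3 being added (-0.40, adjusted p = 0.0243). Whether the numbers pair the libraries is not stated. Deviations from group means correlated at -0.30, -0.34 and 0.09 for same-numbered libraries. For differently numbered libraries they ran from -0.44 (tip replicate 3 with stalk replicate 1) to 0.56 (tip replicate 2 with stalk replicate 1). With 3 libraries per group these correlations cannot tell whether animals or days were shared. With no filter on low values, 2 Smad target genes were higher in stalk, and with no variance trend 3 were. With the highest row per symbol, 0 cofactor genes were higher in tip, and 1 was with the block. With a minimum mean of 5 RPKM, fewer genes were tested, and 1 ligand gene was higher in stalk, 2 Smad target genes in tip and 1 antagonist gene in tip. Depth could not be assessed, so the precision of low values such as those of Smad9 is unknown.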

Other observations

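Among the members, Smad7 alone was highest in tip replicate 2 among the tip libraries and in stalk replicate 1 among the stalk libraries. Of 17 tested Smad target genes, 7 had this pattern, with Cdkn1a, Ctgf, Pmepa1 and Skil among them, which is 41.2% beside 13.5% of the 12532 genes tested. Of 17 tested cofactor and turnover genes, 10 had it, Skil being on both lists. It was in 0 of 10 ligand genes, 1 of 14 receptor genes and 1 of 7 antagonist genes. Krt8 and Krt18 also had it, with Krt8 at 260 RPKM in tip replicate 2 and 935 RPKM in stalk replicate 1, and so did the sum of the stromal markers (30.8 and 42.2 RPKM). Ctgf, a target of TGF-beta and of other pathways, stood at 11.8, 34.7 and 13.2 RPKM in the tip libraries and at 36.7, 20.4 and 15.6 RPKM in the stalk libraries. Pmepa1, a feedback inhibitor of TGF-beta signalling, stood at 3.64, 8.19 and 4.50 RPKM in tip and 12.4, 5.27 and 5.001 RPKM in stalk. The corepressor gene Tgif1 stood at 36.3, 69.4 and 33.8 RPKM in tip and 99.2, 57.2 and 53.8 RPKM in stalk. The BMP antagonist gene Nog stood at 12.1 RPKM in tip replicate 2 and at 0.625 to 2.84 RPKM in the other 5 libraries. Id1, Id2 and Id3 were at their lowest within stalk in stalk replicate 1, but at their highest within tip in tip replicate 2. The pattern that Smad7 had was noticed in the values and was not tested. What sets these libraries apart is not given in the sources used here.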
